A study of Mus musculus with 6 samples.

Results

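Acyl-CoA synthetases of short, medium and long chain length are described here in mouse kidney, as 10 genes out of 56691 in the count files. The members were taken by gene symbol: Acss1 and Acss2 for short chains, Acsm1, Acsm2, Acsm3 and Acsm5 for medium chains, and Acsl1, Acsl3, Acsl4 and Acsl5 for long chains. They were chosen by a measured contrast, the difference between cisplatin-treated and control kidney, so their differences between the groups are given as a description, with no test. All 10 passed the filter on low counts. The study sequenced kidney total RNA of 3 control mice, which received saline, and of 3 mice given 4 intraperitoneal injections of 8 mg/kg cisplatin. All were C57BL/6 males, 9 weeks old at the start, and kidneys were taken at the end of week 7, with 1 library per mouse. The labels name no altered allele, and whole kidneys were used, so that all cell types are mixed. Cisplatin is a platinum drug that damages the proximal tubule, and the repeated injections serve as a model of chronic kidney disease.

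Acyl-CoA synthetases join a fatty acid to coenzyme A at the cost of ATP, by way of an adenylate, and only the acyl-CoA formed can enter oxidation, lipid synthesis or conjugation. Short-chain (Acss) enzymes act on acetate and propionate, medium-chain (Acsm) enzymes sit in the mitochondrial matrix and also activate benzoate for conjugation with glycine, and long-chain (Acsl) enzymes sit on membranes of the endoplasmic reticulum, mitochondria, peroxisomes and lipid droplets. The proximal tubule lives largely on the oxidation of fatty acids. Acsl4, which prefers arachidonic and adrenic acid, supplies the polyunsaturated phospholipids whose peroxidation defines ferroptosis, the form of cell death that the study addresses.

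The members belong to 1 enzyme superfamily, and the stretch they share was read from the genome. A script translated the coding sequence of each canonical transcript (GENCODE vM39, GRCm39), and the PROSITE pattern of the AMP-binding signature, which lies in the adenylate-forming domain, matched once in every member. The 36 bases that encode it are shown because they are what the 3 classes have in common, with capitals for the 14 positions at which all 10 members carry the same base.
Acss1: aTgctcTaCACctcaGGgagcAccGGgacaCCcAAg
Acss2: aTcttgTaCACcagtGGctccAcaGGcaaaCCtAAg
Acsm1: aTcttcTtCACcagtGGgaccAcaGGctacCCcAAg
Acsm2: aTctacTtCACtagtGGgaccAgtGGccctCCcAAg
Acsm3: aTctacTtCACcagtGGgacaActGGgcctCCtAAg
Acsm5: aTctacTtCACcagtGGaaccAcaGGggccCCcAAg
Acsl1: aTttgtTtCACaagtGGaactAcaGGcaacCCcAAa
Acsl3: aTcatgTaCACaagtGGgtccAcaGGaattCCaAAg
Acsl4: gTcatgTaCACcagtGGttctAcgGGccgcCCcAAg
Acsl5: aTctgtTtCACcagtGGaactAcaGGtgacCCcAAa

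The signature lies in coding exons at chr2:150479821-150479856 (Acss1), chr2:155397876-155397911 (Acss2), chr7:119237343-119237378 (Acsm1), chr7:119174888-119174923 (Acsm2), chr7:119373791-119373826 (Acsm3), chr7:119133512-119133547 (Acsm5), chr8:46971513-46972008 (Acsl1), chr1:78671957-78671992 (Acsl3), chrX:141126374-141126409 (Acsl4) and chr19:55269909-55270915 (Acsl5). In Acsl1 and Acsl5 an intron splits it, and in the other members it is within 1 exon.

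Whole coding sequences, with the signature included, were compared as well, without a baseline from unrelated sequences. In global alignments of whole coding sequences, with identity counted over aligned bases, the 4 medium-chain members were 59.5% to 64.2% identical, Acss1 and Acss2 were 59.3% identical, and members of different classes were 52.4% to 57.6% identical. The long-chain members fell into pairs, Acsl3 with Acsl4 at 66.7% and Acsl1 with Acsl5 at 63.5%, and their other pairings lay between 51.9% and 55.2%. No stretch of 75 bases of a member's canonical transcript occurred in a transcript of another member, so that no exact match of this length is shared by 2 members. Stretches shared with other genes were found where genes overlap, in 33.6% of positions of Acsl5 with Zdhhc6, in 27.3% of Acsm3 with Eri2, in 10.3% of Acsl1 with Gm45244, in 5.64% of Acsl3 with Utp14b and Gm69507, in 5.62% of Acss2 with Acss2os and Ggt7, and in 0.49% of Acsl4 with Gm61820. Zdhhc6, Eri2, Gm45244, Acss2os and Ggt7 lie on the opposite strand. Utp14b shares 842 exon bases with Acsl3 on the same strand, where strand cannot separate the reads, and the effect on the Acsl3 counts was not measured. Over all annotated exons, Acss2 also shares 1511 bases with Gss on the opposite strand. Gss had 24483 counts over the libraries, against 102 for Ggt7 and 0 for Acss2os. Counting without regard to strand would have left Acsm3 with 56.7% of its counts, Acsl5 with 73.8% and Acss2 with 79.4%, and for this reason the strand of the transcript was used.

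Counted read pairs per library ran from 21891855 to 26627554, and levels are given as CPM, counts per 1000000 counted pairs after multiplying the library size by the TMM factor, which was 0.844 to 0.894 in control and 1.05 to 1.26 after cisplatin. Fold changes are on the log2 scale, cisplatin minus control, and come with their standard error (SE) from edgeR's quasi-likelihood fit across 15662 genes. In that fit 22.8% of all genes were lower and 24.5% higher after cisplatin at an adjusted p under 0.05, which is 3578 and 3841 genes. The split was 2890 and 4774 with upper-quartile factors, and 1375 and 8508 with library totals, which shifted the median of all genes from 0.05 to 0.48. In whole-kidney RNA, fewer cells of a type and less RNA per cell cannot be told apart. Of 18 proximal tubule markers, 17 fell, with a median log2 fold change of -1.14 and a summed level of 19500 to 21000 CPM in control and 8954 to 10030 CPM after cisplatin. Of these markers, Slc27a2 and Slc7a13 are named again below. The part of the proximal tubule in the results below was not tested.

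Both short-chain members were lower after cisplatin, Acss2 far more than Acss1, and their groups did not overlap. Of all genes tested, 27.6% had groups that did not overlap with cisplatin lower and 30.2% with cisplatin higher, and nothing is read from these shares for the members because the contrast chose them. Acss2 encodes the acetyl-CoA synthetase of the cytosol and nucleus, which turns acetate into acetyl-CoA for lipid synthesis and histone acetylation, and lies at chr2:155355679-155428016. It had 239, 249 and 233 CPM in the control libraries and 54.99, 54.8 and 68.1 CPM in the cisplatin libraries. No cisplatin library came near the controls, and the log2 fold change was -2.02 (SE 0.11), or 24.7% of the control level. Acss1, the mitochondrial acetyl-CoA synthetase at chr2:150460020-150510420, had 147, 161 and 151 CPM in control and 116, 103.5 and 124 CPM in cisplatin libraries. The groups did not overlap here either, but the log2 fold change was only -0.42 (SE 0.095), and with library totals it became 0.0078. Per kilobase of exon, the ratio of Acss2 to Acss1 was 0.56 to 0.589 in control and 0.172 to 0.199 after cisplatin. Per kilobase of the canonical transcript, a length chosen after the data were seen, it was 1.91 to 2.01 and 0.585 to 0.677, so that which of the genes had the higher level in control depended on the length used. The ratio within a library does not depend on the scaling between libraries, and the length enters both groups alike.

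All 4 medium-chain members were lower, and they spanned the widest range of any class. Acsm2, at chr7:119153563-119199913, encodes a mitochondrial enzyme known from the proximal tubule, and had the highest level of all members. It had 4679, 4470 and 4422 CPM in control and 630, 644 and 810 CPM in cisplatin libraries. The log2 fold change was -2.70 (SE 0.14), and 0.849% of the genes tested had a lower value. Acsm1, a butyrate-CoA ligase at chr7:119206249-119261738, had 129, 141 and 122 CPM in control and 27.6, 27.8 and 36.4 CPM in cisplatin libraries. Its log2 fold change of -2.10 (SE 0.12) was close to that of Acss2. Acsm5, at chr7:119118686-119144774, had 84.8, 89.1 and 88.4 CPM in control and 29.6, 29.0 and 40.5 CPM in cisplatin libraries. It was the least lowered of the class, at -1.41 (SE 0.12).

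Acsm3 stood apart from every other member. This gene, first known as SA from the kidney of hypertensive rats and located at chr7:119360137-119386736, had 1159, 869 and 939 CPM in control and 5.51, 2.61 and 7.55 CPM in cisplatin libraries. The raw counts were 27567, 17845 and 19535 in control and 160, 78 and 173 in cisplatin libraries. The cisplatin mean was 0.528% of the control mean, with a log2 fold change of -7.59 (SE 0.33), and only 5 of the 15662 genes tested had a lower value. The value stayed between -7.96 and -7.25 when single libraries were left out. The ratio of Acsm3 to Acsm2 per kilobase of exon was 0.287 to 0.366 in control and 0.006 to 0.0138 after cisplatin, and over the canonical transcript it was 0.493 to 0.629 and 0.0103 to 0.0237. Acsm3 was thus lowered far beyond Acsm2 within each cisplatin library.

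Of the long-chain members 3 were higher after cisplatin with no overlap between the groups, beside 30.2% of all genes tested, and in Acsl3 the groups overlapped. Acsl4, at chrX:141100840-141173789, had 43.0, 46.7 and 44.3 CPM in control and 89.8, 91.4 and 101 CPM in cisplatin libraries. The groups were well separated, with a log2 fold change of 1.08 (SE 0.086), or 2.11-fold. Acsl5, an enzyme of mitochondria and the endoplasmic reticulum encoded at chr19:55240267-55286153, had 52.1, 52.9 and 49.2 CPM in control and 72.6, 79.7 and 74.6 CPM in cisplatin libraries, and its log2 fold change was 0.56 (SE 0.082). Acsl1, the main long-chain synthetase of oxidative tissues, encoded at chr8:46924063-46990145, had 150, 157 and 144 CPM in control and 191, 197 and 203 CPM in cisplatin libraries. It differed by 0.39 (SE 0.085), again with no overlap. Acsl3, an enzyme of the endoplasmic reticulum and of growing lipid droplets encoded at chr1:78635537-78685461, had 15.9, 20.3 and 14.6 CPM in control and 13.2, 13.9 and 15.2 CPM in cisplatin libraries. Its value of -0.26 (SE 0.13) became 0.16 with library totals. Acsl3 and Acsl4, the closest pair in coding sequence, thus had values of -0.26 and 1.08.

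**Figure D1:**
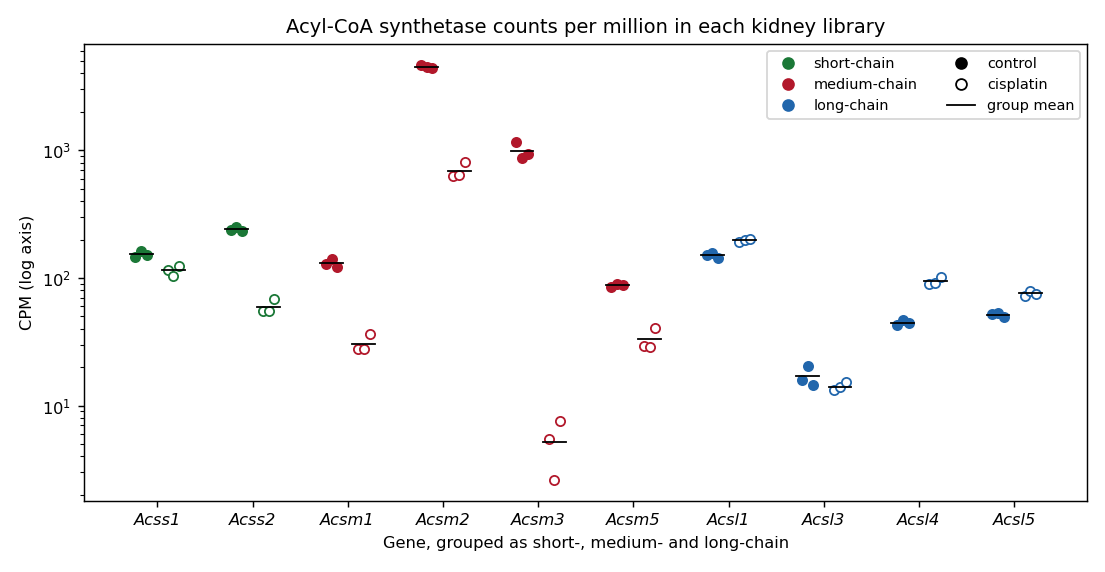
CPM of each of the 10 members on a log axis, with filled points for the 3 control libraries, open points for the 3 cisplatin libraries and a line for the group mean. The medium-chain genes hold both the highest values, 4422 to 4679 CPM for Acsm2 in control, and the lowest, 2.61 to 7.55 CPM for Acsm3 after cisplatin, and of the 10 members the groups overlap in Acsl3 alone.

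By class, the short-chain members had a median log2 fold change of -1.22, the medium-chain members of -2.40 and the long-chain members of 0.47, beside 0.05 over all genes tested. Among the cisplatin mice, all 6 short- and medium-chain members were least lowered in replicate 3, with a medium-chain median of -2.16 against -2.54 and -2.52 in replicates 1 and 2. The proximal tubule markers had medians of -1.13, -1.20 and -1.07 in replicates 1 to 3, but single markers went both ways. Lrp2 had 1713, 1477 and 1387 CPM in cisplatin replicates 1 to 3, and Slc27a2 had 790.5, 895 and 982 CPM. The long-chain median was 0.42, 0.51 and 0.49, and Acsl1 and Acsl4 were highest in replicate 3. The order of the mice rests on the TMM factors, which were 1.26, 1.18 and 1.05 in cisplatin replicates 1 to 3. It can differ with library totals, so nothing is read from which library was nearest to the controls. Acsm3 was lowest in replicate 2, at -8.51, against -7.46 and -7.01 in replicates 1 and 3.

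Levels of different genes were compared per kilobase, over the union of all annotated exons. In control kidney the order was Acsm2 with 609.3 ± 18.4 CPM per kb (SD, n = 3), Acsm3 with 197 ± 30.1, Acsm1 with 43.6 ± 3.24, Acss1 with 21.3 ± 1.03, Acsm5 with 16.2 ± 0.437 and Acss2 with 12.1 ± 0.419, followed by the 4 long-chain members at 3.11 to 9.24. Neighbours in this order did not overlap, apart from Acsl1 and Acsl5. In cisplatin-treated kidney Acsm2 still led, with 93.6 ± 13.4 CPM per kb (SD, n = 3), and Acsm3 was last with 1.04 ± 0.493. Acss1 and Acsl4 followed Acsm2 at 16.0 ± 1.46 and 15.8 ± 1.04 and overlapped, as did Acsl5 with Acsl1, Acsl1 with Acsm1, and Acss2 with Acsl3. The exon union was 6.58 times the canonical transcript for Acss2 and 2.81 times for Acsl1, and 1.1 to 1.93 times for the other members, so the order was computed again over the canonical transcript, a choice made after the data were seen. Acss2 then held rank 3 in control, at 79.9 ± 2.76 CPM per kb (SD, n = 3). Acsl1 held rank 2 in cisplatin-treated kidney at 34.1 ± 1.02 (SD, n = 3), overlapping with Acss1, and the ranks of Acsm2 and Acsm3 were as before.

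The medium-chain members made up 93.3% ± 0.51 (SD, n = 3) of the summed level of the 10 members in control and 63.9% ± 2.26 (SD, n = 3) in cisplatin-treated kidney. The long-chain share was 3.08% ± 0.24 in control and 25.1% ± 1.99 after cisplatin, and the short-chain share was 3.61% ± 0.28 and 10.98% ± 0.69 (SD, n = 3 each). With the canonical transcript as the length, the medium-chain share was 86.9% in control and 51.3% after cisplatin, and the short-chain share was 9.28% and 19.9%. The summed level itself was 899.6 to 980.3 CPM per kb in control and 161 to 196 CPM per kb after cisplatin. Without Acsm2, the medium-chain share was 78.4% to 82.7% in control and at most 24.4% in cisplatin libraries, and the long-chain share was 8.03% to 9.99% and 51.7% to 57.3%. The change of shares was thus present with and without the most abundant member.

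**Figure D2:**
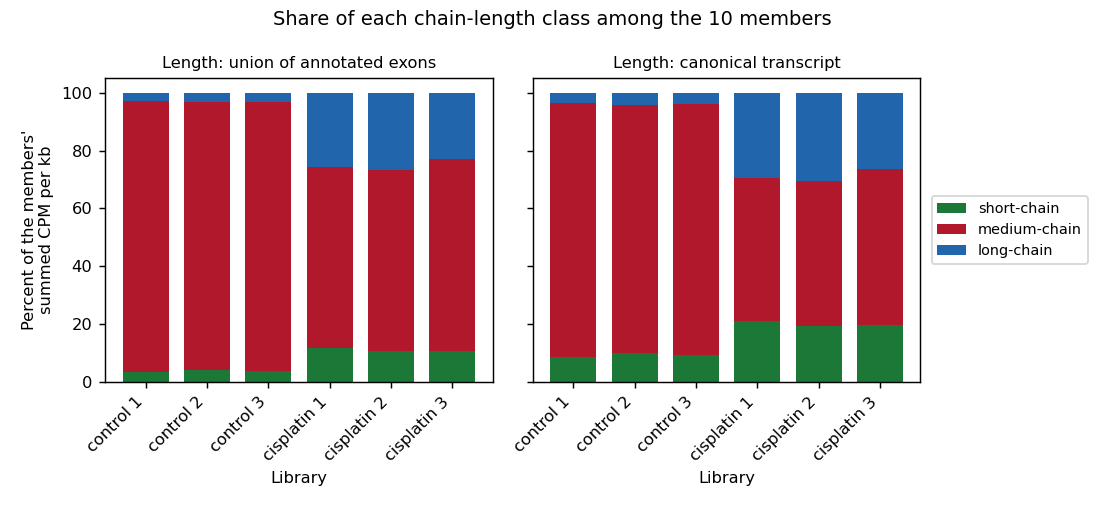
Percent of the members' summed CPM per kb that each chain-length class held in each of the 6 libraries, with the exon union (left) or the canonical transcript (right) as the length. The medium-chain part is at least 85.8% in every control library in both panels, and the long-chain part is 22.9% to 26.7% on the left and 26.3% to 30.6% on the right in the cisplatin libraries.

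The region around each start site was read from GRCm39, from 250 bases before to 50 bases after the start of the canonical transcript. Of 21770 promoters of protein-coding genes, the median had 11 CpG dinucleotides. The 4 medium-chain members had 1 (Acsm1 and Acsm2), 2 (Acsm5) and 7 (Acsm3), the short-chain members 14 each, and the long-chain members 33 (Acsl3), 28 (Acsl1), 12 (Acsl4) and 6 (Acsl5). The medium-chain promoters were thus all below the median of the genome. The promoters are shown for the member with the largest difference in each class and for the most abundant member, at chr2:155359618-155359917 on the plus strand (Acss2), chr7:119160466-119160765 on the plus strand (Acsm2), chr7:119359893-119360192 on the plus strand (Acsm3) and chrX:141173740-141174039 on the minus strand (Acsl4), in the direction of transcription. Capitals mark matches on either strand to TATAAA (the TATA box), CCAAT (the CCAAT box), CACGTG (the E-box), CAAAGTCCA (a motif of HNF4) or TCACNCCAC (the sterol regulatory element, bound by SREBP), and no match overlapped another.
Acss2: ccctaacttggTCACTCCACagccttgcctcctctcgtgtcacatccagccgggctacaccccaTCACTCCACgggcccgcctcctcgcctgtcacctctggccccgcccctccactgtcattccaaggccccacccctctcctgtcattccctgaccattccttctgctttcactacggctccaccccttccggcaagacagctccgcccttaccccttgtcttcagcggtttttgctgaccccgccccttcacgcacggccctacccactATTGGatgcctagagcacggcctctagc
Acsm2: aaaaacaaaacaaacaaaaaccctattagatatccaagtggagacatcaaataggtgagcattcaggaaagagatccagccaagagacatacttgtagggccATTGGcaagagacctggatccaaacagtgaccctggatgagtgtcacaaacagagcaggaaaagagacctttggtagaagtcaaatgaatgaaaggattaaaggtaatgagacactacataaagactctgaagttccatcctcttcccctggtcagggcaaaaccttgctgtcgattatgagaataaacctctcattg
Acsm3: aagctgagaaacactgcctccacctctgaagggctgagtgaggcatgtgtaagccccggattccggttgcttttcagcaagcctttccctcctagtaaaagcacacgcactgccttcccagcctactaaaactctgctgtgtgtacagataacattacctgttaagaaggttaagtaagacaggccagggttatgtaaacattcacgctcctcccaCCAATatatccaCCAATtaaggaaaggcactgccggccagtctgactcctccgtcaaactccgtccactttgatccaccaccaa
Acsl4: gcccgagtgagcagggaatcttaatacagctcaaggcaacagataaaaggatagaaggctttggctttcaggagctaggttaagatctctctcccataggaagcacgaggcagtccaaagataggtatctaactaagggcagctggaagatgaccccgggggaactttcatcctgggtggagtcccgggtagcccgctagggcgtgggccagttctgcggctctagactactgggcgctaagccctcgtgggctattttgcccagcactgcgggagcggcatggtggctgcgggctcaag

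The Acss2 promoter held TCACNCCAC at 2 places, 239 and 186 bases before the start. The motif occurred in 1.34% of all promoters of this length, and 8 of the 21770, or 0.0367%, held it at least 2 times. No other member had it in this window. CCAAT was present in 8 of 10 members and in 39.9% of all promoters, with 2 matches in Acsm3, at 34 and 22 bases before the start. TATAAA was found in Acsl5 alone and in 13.2% of all promoters, CACGTG in Acsm5 alone and in 7.81%, and CAAAGTCCA in no member and in 0.45%. The Acsl4 promoter held none of the 5 motifs. A match describes the letters in this window only.

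The 4 medium-chain members lie together in 268.1 kb at chr7:119118686-119386736, all on the plus strand, and the genes around them were compared because they had no part in the choice of members. Of 16 other protein-coding genes with a start within 500 kb of this span, 12 passed the filter. Of these 3 fell and 1 rose, beside 22.8% and 24.5% of all genes tested, with a median log2 fold change of -0.05. Umod, which encodes uromodulin of the thick ascending limb, fell by 0.50 (SE 0.12, edgeR adjusted p = 0.0051). It had 2192, 2369 and 2238 CPM in control and 1630, 1418 and 1752 CPM in cisplatin libraries. Rexo5 fell by 0.99 (SE 0.22, edgeR adjusted p = 0.0037) at 1.14 to 3.07 CPM, and Anks4b, a scaffold of the brush border, fell by 0.49 (SE 0.078, edgeR adjusted p = 0.00045). Thumpd1 lies inside the cluster between Acsm1 and Acsm3, and had a log2 fold change of 0.04 (SE 0.087, edgeR adjusted p = 0.71), with 24.6, 24.7 and 26.6 CPM in control and 25.1, 25.5 and 27.7 CPM in cisplatin libraries. Its libraries overlapped between the groups, while the Acsm genes on either side were lower. Pdilt, which overlaps the start of the cluster, had -0.45 (SE 0.21, edgeR adjusted p = 0.098). Acsm4, a further Acsm gene inside the cluster, had 1 count in all 6 libraries. Eri2, an exonuclease gene on the opposite strand that shares 2132 exon bases with Acsm3, rose by 0.55 (SE 0.14, edgeR adjusted p = 0.009), a call that was lost when strand was ignored. The other 6 tested neighbours, Gp2, Dcun1d3, Lyrm1, Dnah3, Ldaf1 and Crym, had log2 fold changes of -0.16 to 0.22 and were not called.

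**Figure D3:**
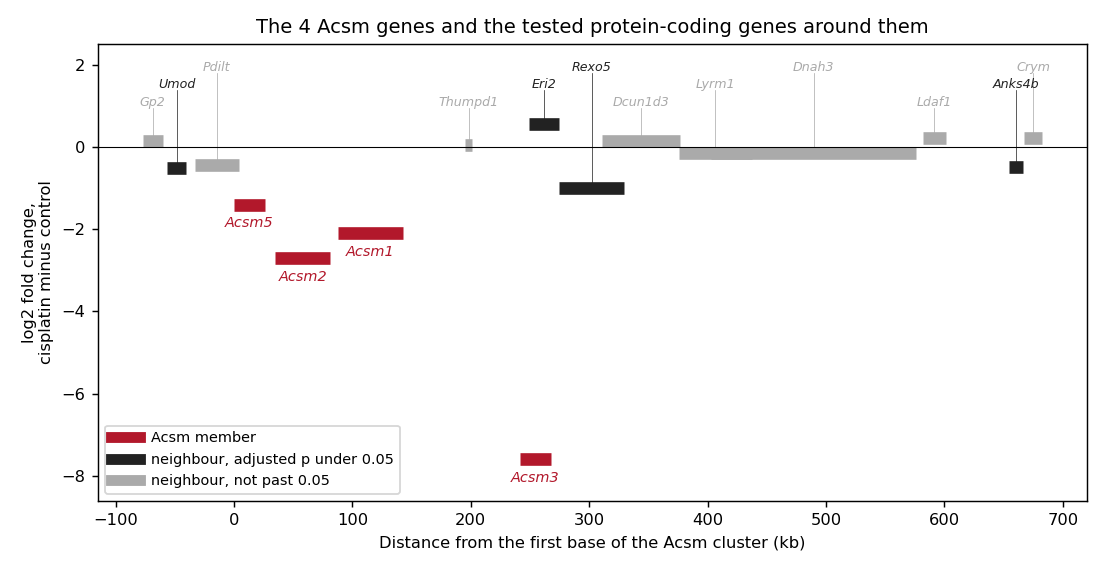
Log2 fold change (cisplatin minus control) of the 4 Acsm members and of the 12 tested neighbouring genes against their distance in kb from the first base of the cluster, each bar spanning the gene. The Acsm genes lie between -7.59 and -1.41, whereas every neighbour lies between -0.99 and 0.55.

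The rest of the acyl-CoA synthetase family, listed with earlier results of these data known, did not move as 1 group. Of 15 other family genes 11 were tested, 5 fell, 3 rose and 3 were not called, with a median log2 fold change of -0.25. Aacs, the cytosolic acetoacetyl-CoA synthetase that feeds ketone bodies into lipid synthesis, had 119.5, 73.8 and 75.3 CPM in control and 16.5, 18.1 and 18.9 CPM in cisplatin libraries. It fell by 2.33 (SE 0.18, edgeR adjusted p = 3e-06), a size near that of Acss2. Slc27a2, the very long-chain acyl-CoA synthetase and fatty acid transporter of the proximal tubule, fell by 1.43 (SE 0.12, edgeR adjusted p = 5.6e-06) from 2295 to 2503 CPM in control to 790.5 to 982 CPM in cisplatin libraries. Acsf3, the malonyl-CoA synthetase of mitochondria, fell by 0.99 (SE 0.090, edgeR adjusted p = 1e-05). Aasdh and Acss3, a propionyl-CoA synthetase of mitochondria, fell by 0.36 and 0.33 (edgeR adjusted p = 0.039 and 0.013). With Acss3, all 3 short-chain Acss genes were lower with TMM factors, although a test is given for Acss3 alone. With library totals Acss1 had 0.0078, and 3 of the other acyl-CoA synthetases fell instead of 5. At an adjusted p under 0.01 Acss3 was not called.

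The 3 family genes that rose were Slc27a1, Acsbg1 and Slc27a6. Slc27a1, a long-chain fatty acid transporter with synthetase activity, rose by 0.58 (SE 0.087, edgeR adjusted p = 0.0003), with 18.6, 20.8 and 18.9 CPM in control and 29.7, 28.5 and 28.8 CPM in cisplatin libraries. Acsbg1 rose by 2.65 (SE 0.26, edgeR adjusted p = 1.9e-05) from 0.438 to 0.769 CPM to 3.02 to 4.48 CPM. Its control libraries alone would not have passed the filter. Slc27a6 had 2 counts over all control and 60 counts over all cisplatin libraries. It passed the filter through the cisplatin libraries alone, so it could only be called higher. With 10 counts required in every library, Acsbg1 and Slc27a6 were left out, and 1 of the other acyl-CoA synthetases was higher, Slc27a1. Acsf2, Slc27a3 and Slc27a4 had log2 fold changes of 0.50, 0.25 and -0.25 and were not called (edgeR adjusted p = 0.098, 0.23 and 0.075). Acsl6, Acsm4, Acsbg2 and Slc27a5 did not pass the filter.

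**Figure D4:**
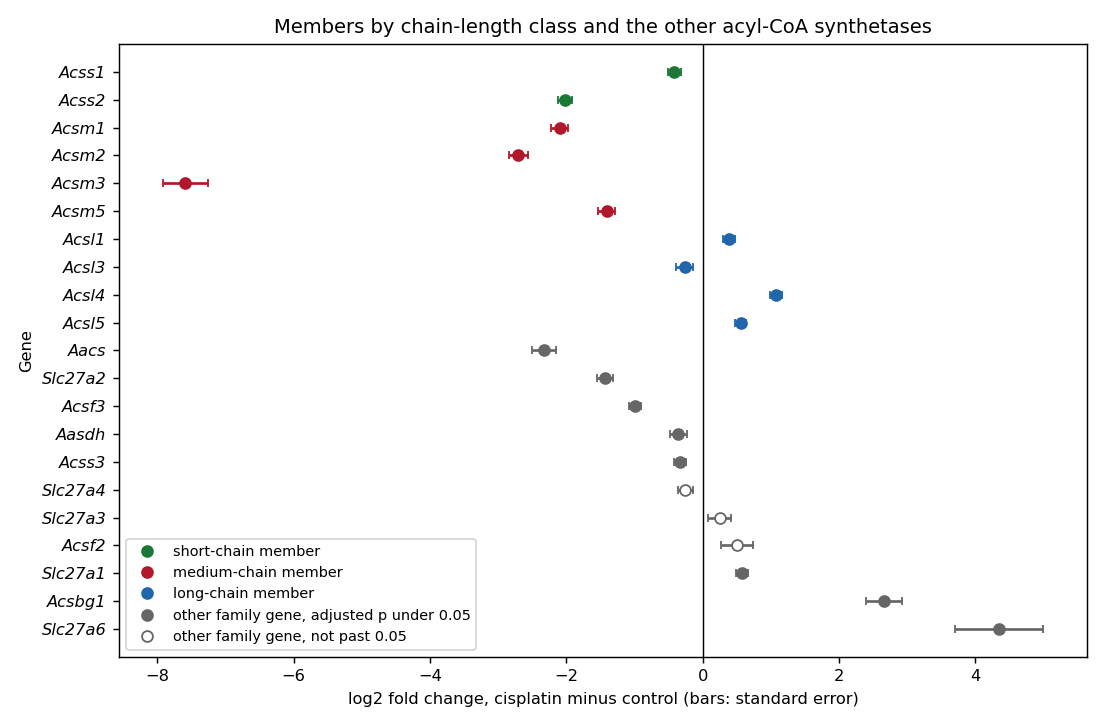
Log2 fold change (cisplatin minus control) with its standard error for the 10 members, coloured by chain length, and for the 11 other tested acyl-CoA synthetases in grey, of which the grey points alone carry a test and are filled where the adjusted p was under 0.05. All short- and medium-chain members lie left of 0 and 3 of the 4 long-chain members lie right of 0, while the other family genes run from -2.33 for Aacs to 2.65 for Acsbg1, with Slc27a6 beyond at 2 control counts in all.

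Genes that use or remove acyl-CoA were taken from lists of the pathway, 129 genes in all. Of these 120 were tested, 70 fell, 19 rose and 31 were not called, with a median of -0.43. The counts here and in each list below stand beside 22.8% of all genes tested that fell and 24.5% that rose. All 15 listed acyl-CoA dehydrogenases and oxidases of mitochondria and peroxisomes fell, with a median of -1.14. The list is not confined to the step after the synthetases, as it also holds Ivd, Acad8, Acadsb and Gcdh of amino acid breakdown. Acadm, the dehydrogenase of medium-chain acyl-CoA, fell by 1.69 (SE 0.14, edgeR adjusted p = 6.6e-06), with 626, 760.5 and 660 CPM in control and 177, 200 and 256 CPM in cisplatin libraries. Acads, for short chains, fell by 1.31 (SE 0.091, edgeR adjusted p = 1.7e-06), and Acadl and Acadvl, for long and very long chains, fell by 0.85 and 0.87 (edgeR adjusted p = 2.9e-05 and 5.5e-05). The dehydrogenases of long chains were thus lower although 3 of the 4 long-chain synthetases were higher. Acox3, a peroxisomal oxidase, fell by 1.82 (edgeR adjusted p = 1.8e-07).

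Of the carnitine genes, which carry long-chain acyl groups into mitochondria, 5 of 7 tested fell. Crot, the carnitine acyltransferase of peroxisomes, fell by 2.04 (SE 0.13, edgeR adjusted p = 6.8e-07), and Cpt1a and Cpt2 fell by 0.56 and 0.90 (edgeR adjusted p = 0.00094 and 2.1e-05). Cpt1c, a brain form, rose by 2.39 (SE 0.26, edgeR adjusted p = 3.3e-05) from 0.584 to 0.967 CPM to 3.14 to 5.26 CPM. Of the later steps of beta-oxidation 11 of 17 fell, with a median of -0.41. Etfa, the electron acceptor of the dehydrogenases, fell by 1.08 (SE 0.087, edgeR adjusted p = 4.5e-06). Acaa2, a mitochondrial thiolase, had 0.08 (SE 0.14, edgeR adjusted p = 0.67). Of the acyl-CoA thioesterases, which undo the work of the synthetases, 6 of 12 fell and 3 rose. Acot12, a cytosolic acetyl-CoA hydrolase, fell by 1.88 (SE 0.092, edgeR adjusted p = 1.4e-07), and Acot1, which acts on long chains in the cytosol, rose by 0.69 (SE 0.10, edgeR adjusted p = 0.00026).

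Glycine N-acyltransferases use the benzoyl-CoA and medium-chain acyl-CoA that Acsm enzymes form, and all 3 tested genes fell. Glyat had 308, 259 and 269 CPM in control and 106, 103 and 130 CPM in cisplatin libraries, and fell by 1.30 (SE 0.12, edgeR adjusted p = 8.8e-06). Keg1, a kidney-rich relative, fell by 1.86 (SE 0.18, edgeR adjusted p = 1.6e-05). Gm4952 fell by 2.79 (SE 0.28, edgeR adjusted p = 2.2e-05) at a low level of 2.65 to 3.26 CPM in control. Among genes that use acetyl-CoA and propionyl-CoA, 10 of 14 fell. Acat1, the mitochondrial thiolase of ketone and isoleucine breakdown, fell by 2.17 (SE 0.14, edgeR adjusted p = 1e-06), and Pcca, a subunit of propionyl-CoA carboxylase, fell by 1.24 (SE 0.083, edgeR adjusted p = 1.4e-06). Sirt3, the mitochondrial deacetylase that activates Acss1, fell by 1.10 (SE 0.12, edgeR adjusted p = 4.1e-05), and Sirt1, which does so for Acss2, had -0.10 (SE 0.091, edgeR adjusted p = 0.37).

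SREBP targets, the list to which Acss2 and Aacs belong by textbook, split, with 5 of 14 lower, 4 higher and a median of -0.09. Me1, the malic enzyme that makes NADPH, fell by 2.29 (SE 0.097, edgeR adjusted p = 6.2e-08), and Hmgcs1 of sterol synthesis fell by 1.46 (edgeR adjusted p = 1.6e-06). Scd2, a desaturase, and Elovl6, an elongase, rose by 1.08 and 1.03 (edgeR adjusted p = 1.3e-05 for both). Of the genes of polyunsaturated phospholipids and their peroxidation, beside which Acsl4 is usually placed, 6 of 18 fell and 6 rose. Among those that rose, Alox5 passed the filter through the cisplatin libraries alone. Agps and Far1, enzymes of ether lipid synthesis, fell by 2.79 and 1.28 (edgeR adjusted p = 5.9e-08 and 9.9e-06), and Lpcat3, which places the products of Acsl4 in phospholipids, fell by 0.44 (SE 0.077, edgeR adjusted p = 0.00087). Mboat1 and Lpcat2, other acyltransferases, rose by 1.49 and 2.17 (edgeR adjusted p = 1.1e-05 and 1.6e-05). Gpx4, which reduces lipid hydroperoxides, had -0.20 (SE 0.12, edgeR adjusted p = 0.19).

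Of the fatty acid and acyl-CoA binding genes 8 of 12 fell and 1, Fabp1, rose. Fabp1 had 0.146 to 0.21 CPM in control and 0.871 to 2.97 CPM in cisplatin libraries. It passed the filter through the cisplatin libraries alone, so it could only be called higher. Cd36, a fatty acid uptake receptor, had 602, 458 and 545 CPM in control and 57.8, 60.5 and 75.6 CPM in cisplatin libraries and fell by 3.05 (SE 0.14, edgeR adjusted p = 1.1e-07). Among PPAR factors and targets, a list that also holds Cpt1a, 6 of 16 fell and 5 rose, Fabp1 among them. Ppara itself had a log2 fold change of 0.02 (SE 0.084, edgeR adjusted p = 0.88), whereas Cyp4a14 rose by 6.28 (SE 0.41, edgeR adjusted p = 9.9e-07) and Cyp4a10 by 1.72 (SE 0.19, edgeR adjusted p = 4.5e-05).

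**Figure D5:**
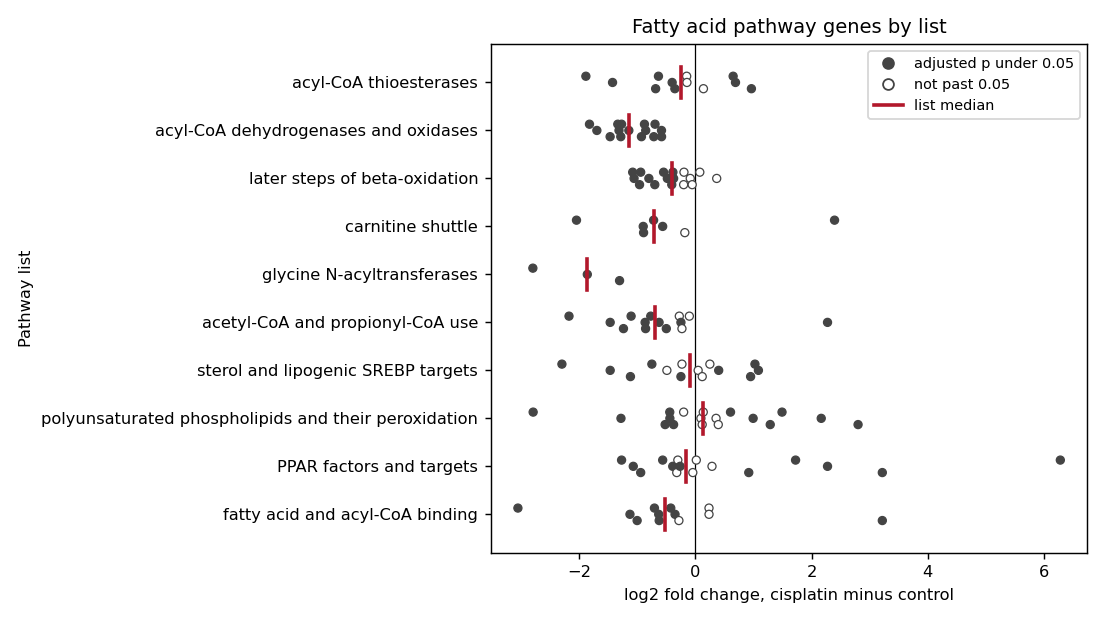
Log2 fold change (cisplatin minus control) of every tested gene in the 10 pathway lists, filled where the adjusted p was under 0.05, with a red line at each list's median; some genes stand in more than 1 list. The acyl-CoA dehydrogenases and oxidases and the glycine N-acyltransferases lie wholly left of 0, while SREBP targets and polyunsaturated phospholipid genes lie on both sides.

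The genes most like the leading member of each class were found by the root mean square (RMS) difference of the 3 cisplatin libraries' log2 CPM deviations from the control mean, over the 8523 genes whose log2 CPM averaged 3 or more. For Acss2 these were Crot, the transporter Slc5a8, Cckar, Acsm1 and Hsd11b1, at 0.0341 to 0.112. Acsl4 had S100a10, Ugt2b34, Tpm4, Ifit3 and Sema3c at 0.0388 to 0.0495. For Acsm3 no gene came as close, and the nearest were Slco1a1, Kap, Akr1c14, Slc7a13 and Slc22a30 at 1.07 to 2.22. Slco1a1, an organic anion transporter, deviated by -8.85, -8.52 and -8.24 in cisplatin replicates 1 to 3, and Kap, an androgen-regulated protein of the proximal tubule, by -6.32, -7.01 and -5.69.

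Markers of cell types in the same libraries stood beside these results as follows. All 8 injured tubule markers rose, with a summed level of 341 to 380 CPM in control and 2468 to 2746 CPM after cisplatin. Of these, Krt20 and Sox9 passed the filter through the cisplatin libraries alone and could only be called higher. Fibroblast and macrophage markers rose in 6 of 7 each, and collecting duct markers in 6 of 8. Of all genes tested, 24.5% rose. Markers of adipocytes, which are rich in Acsl1, summed to 1.88 to 10.6 CPM in control and 1.98 to 15.4 CPM after cisplatin. The part of these cell types in the higher level of Acsl1, Acsl4 and Acsl5 was not tested.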

How the data were processed

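Total RNA of 3 control and 3 cisplatin-treated kidneys was made into libraries with a stranded kit. The authors trimmed read pairs with Cutadapt, aligned them to mm39 with STAR and deposited raw counts per gene, and neither STAR's settings nor its annotation were given in the sources used here. Transcript-strand counts held 96.7% to 97.2% of stranded counts. Of 56691 genes, 56017 had a record in GENCODE vM39, which gave names, lengths and loci.

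Genes were tested with edgeR 4.0.16 (filterByExpr with minimum count 10 and total 15, TMM factors, quasi-likelihood F test) across 15662 genes, with Benjamini-Hochberg adjustment at 0.05, and no test is given for members. Genes near 0 in control, such as Slc27a6, Fabp1, Alox5, Krt20 and Sox9, passed the filter through the cisplatin libraries alone and could only be called higher. The biological coefficient of variation was 11.0%. The SE is the log2 fold change divided by the square root of F, and log2 CPM use a prior count of 2. Sequences came from GRCm39 with Biopython 1.88. R 4.3.3, Python 3.11.15, pandas 2.3.3 and matplotlib 3.10.9 were used, and the fit was tested on simulated data.

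The members and gene lists were chosen with earlier results of these data known. The text names every member, from each list up to 4 genes per direction with the smallest adjusted p and genes whose role is tied to a member, all tested neighbours within 500 kb of the Acsm genes, and the 5 genes most like the leading member of each class. Cpt1c, Acaa2 and the listed genes that were not called were named after their values were seen. A few listed genes that this rule names are not reported here. Alternatives were other tools (DESeq2 1.42.0, limma-voom of limma 3.58.1), other scaling (size factors of DESeq2, the upper quartile, library totals), other filters (none, or 10 counts per library), strand ignored, a block for the replicate number, each library left out, an adjusted p under 0.01 and, added later, the canonical transcript as length.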

Additional observations from a re-analysis of the deposited data

How the results depend on the processing

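Across 150 values of the members' log2 fold changes under alternatives, 137 moved by less than the spread between cisplatin mice, 11 moved further, and 2 reversed, Acss1 at 0.0078 and Acsl3 at 0.16, both with library totals. Library totals moved most results, with 1375 genes lower and 8508 higher over all genes, 3 and 5 of the other acyl-CoA synthetases, 44 and 38 of the pathway genes, and 0 (0 also at an unadjusted edgeR p under 0.05) and 5 of the genes beside the Acsm cluster, and with class medians of -0.80 (short), -1.98 (medium) and 0.90 (long). With upper-quartile factors 2 genes beside the cluster were higher and the long-chain median was 0.56. Ignoring strand left 0 genes beside the cluster higher (1 at an unadjusted edgeR p under 0.05), where counts shared by Eri2 and Acsm3 are dropped. An adjusted p under 0.01 left 3 of the other synthetases lower, and 10 counts in every library left 9 of them tested and 1 higher. Leaving out single libraries gave 1 to 2 genes higher beside the cluster, 2 of them without cisplatin replicate 1. With the canonical transcript as the length, chosen after seeing the data, the shares in control and cisplatin-treated kidney were 9.28% and 19.9% (short), 86.9% and 51.3% (medium) and 3.87% and 28.7% (long).

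The labels give both groups the numbers 1 to 3. Same-numbered libraries had correlated deviations of 0.133, 0.142 and 0.0997, and every library correlated best with its own number, as a hint from the data. No source says that the numbers pair mice. With the replicate number as a block 3796 genes were lower and 4087 higher. Acsm3 had 78 to 173 counts after cisplatin and a coefficient of variation of 47.5% between these mice. With 3 mice a group, all values rest on the spread of few animals.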

Other observations

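The nearest genes to Acsm3 led to 2 lists of sex-biased kidney genes, looked at with their values already known. All 9 listed genes higher in male kidney fell after cisplatin, beside 22.8% of all genes tested, with a median log2 fold change of -4.18. Of them 4, Slco1a1, Kap, Slc7a13 and Slc22a30, are among the 5 genes most like Acsm3. Because these 4 led to the list, neither their fall nor this overlap is a separate result. Kap had 21270, 20740 and 21610 CPM in control and 265, 164 and 412 CPM in cisplatin libraries and fell by 6.24 (SE 0.33, edgeR adjusted p = 2.5e-07). Of 4 listed genes higher in females 3 rose. These were Slc7a12, by 5.30 (SE 0.32, edgeR adjusted p = 5.7e-07), Prlr, the prolactin receptor, by 2.91 (SE 0.27, edgeR adjusted p = 1.1e-05), and Cyp4a14, which also stands among the PPAR targets above. Cyp2a4, better known as higher in female liver, fell by 3.22 (SE 0.18, edgeR adjusted p = 3.7e-07). All mice were male, and whether these genes and Acsm3 have a cause in common was not tested.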
